A study of Mus musculus and Rattus norvegicus with 28 samples.

Results

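Bdh1, Oxct1 and Acat1 are 3 genes of ketone body metabolism, chosen by name, and each was found in the mouse and in the rat RNA-seq files. They are 3 of 55450 annotated mouse genes and 3 of 32623 annotated rat genes. All 3 passed the filter on low values and were among the 13979 mouse and 13625 rat genes that entered the tests. Mouse cardiomyocytes came from the left ventricles of wild-type C57BL/6 mice of both sexes at embryonic day 18.5 (E18.5) and postnatal days 1 (P1), 3 (P3) and 7 (P7). Each time point had 2 RNA-seq and 2 ATAC-seq libraries, ATAC-seq being an assay that marks open chromatin by where a transposase inserts. Rat cells were neonatal rat ventricular cardiomyocytes (NRVCs) from Sprague Dawley rats at P1, treated in culture for 48 h with the solvent DMSO or with 100 nM TSA, an inhibitor of histone deacetylases, with 3 RNA-seq libraries each. Hearts were digested with enzymes and the cells were pre-plated to remove other cell types, after which mouse cells were used directly.

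Ketone bodies are small molecules that the liver makes from acetyl-CoA and that the heart and other tissues burn. In the mitochondria, BDH1 interconverts β-hydroxybutyrate and acetoacetate, OXCT1 (also called SCOT) moves CoA from succinyl-CoA onto acetoacetate, and ACAT1 is a thiolase that splits the resulting acetoacetyl-CoA into acetyl-CoA for the citric acid cycle. OXCT1 acts only in ketone use, whereas BDH1 and ACAT1 act in both directions. Suckling animals live on fat-rich milk, so ketone bodies are an abundant fuel after birth.

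The stretches of genome next to the starts are shown because the peaks described below lie on or near them. Sequences are from RefSeq for the build GRCm38 and are given on the + strand, which is the coding strand of both genes. Bdh1 (ENSMUSG00000046598.15) lies at chr16:31422280-31458901 and Oxct1 (ENSMUSG00000022186.14) at chr15:4026383-4155344. The first line holds 245 bases that precede the start of the most abundant Bdh1 transcript (chr16:31428503-31428747). The second holds 274 bases of Bdh1 intron 1 (chr16:31429773-31430046), the stretch covered by a peak in all 8 ATAC-seq lists. The third holds 205 bases that precede the start of the most abundant Oxct1 transcript (chr15:4026178-4026382). Capitals mark motif matches.

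Bdh1 upstream: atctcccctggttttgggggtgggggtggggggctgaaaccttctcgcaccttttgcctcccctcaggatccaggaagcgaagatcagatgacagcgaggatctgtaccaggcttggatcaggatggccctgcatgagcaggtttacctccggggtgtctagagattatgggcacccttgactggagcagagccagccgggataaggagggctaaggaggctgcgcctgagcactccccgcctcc

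Bdh1 intron 1: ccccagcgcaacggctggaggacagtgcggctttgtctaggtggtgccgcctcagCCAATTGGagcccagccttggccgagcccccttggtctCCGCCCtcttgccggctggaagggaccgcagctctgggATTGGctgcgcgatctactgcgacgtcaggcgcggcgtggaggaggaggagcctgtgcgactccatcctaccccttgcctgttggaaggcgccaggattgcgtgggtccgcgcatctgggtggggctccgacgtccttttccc

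Oxct1 upstream: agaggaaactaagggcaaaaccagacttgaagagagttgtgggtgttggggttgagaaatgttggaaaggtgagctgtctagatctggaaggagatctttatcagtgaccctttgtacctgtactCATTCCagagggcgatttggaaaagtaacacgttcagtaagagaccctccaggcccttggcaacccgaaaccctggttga

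The motifs searched on both strands were TGANTCA for AP-1, AGATAA for GATA factors, GGAATG for TEAD, TNAAGGTCA for ERR, GGGCGG for the GC box, CCAAT for the CCAAT box, CACGTG for the E box, CCGGAAG for ETS, and the PPAR direct repeat, NRF1 and MEF2 consensus motifs, given by name. None of the 11 motifs matched in the Bdh1 upstream stretch. The stretch of Bdh1 intron 1 held 3 CCAAT matches and 1 GC box, and 2 of the CCAAT matches overlap as the same 8 letters read on either strand. At least 1 CCAAT match was present in 33.0% of 13108 windows of the same length centred on the peak summits of E18.5 replicate 1, and at least 3 in 4.0%. The GC box was present in 54.7% of these windows. The Oxct1 stretch held 1 match to GGAATG, which 10.9% of 32851 promoter stretches of this length also held. The intron stretch had 22 CpG pairs and a GC content of 67.2%, against 7 CpG pairs and 60.4% in the Bdh1 upstream stretch and 3 CpG pairs and 47.8% in the Oxct1 stretch. At least 22 CpG pairs were found in 44.8% of the windows at peak summits. Acat1 (ENSMUSG00000032047.5, chr9:53580522-53610382, − strand) is named only.

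Cell type markers moved strongly across the mouse libraries and are given before the results. The summed level of 16 cardiomyocyte markers (all above 0 in every library) was 31543 and 40828 FPKM at E18.5, 16190 and 25581 at P1, then 10720 and 8774 at P3, with 2852 and 1311 at P7. FPKM counts fragments relative to transcript length and to the library's mapped total. A list of 12 fibroblast markers summed to 545 to 556 at E18.5 and to 3730 to 4584 at P7, and 7 erythroid markers summed to 29046 and 35395 at E18.5 and to at most 41.0 afterwards. Of these lists, 16 of 16 cardiomyocyte markers fell and 11 of 12 fibroblast markers rose from E18.5 to P7 (limma, adjusted p below 0.05 and a change above 2-fold). The P7 libraries were thus poorer than the E18.5 libraries in the RNAs that define their labelled cell type. The paper, by contrast, describes the isolated P7 cells as highly pure from staining of the protein cardiac troponin T. It also reports that the promoters of Pecam1 and Dcn were closed in its cardiomyocytes. In bulk samples, fewer cells of a type and less RNA per cell cannot be told apart. Aligned reads numbered 29.3 to 37.5 M per mouse library and 28.2 to 38.5 M per rat library. Behind the levels stood 3791 to 17156 estimated reads per mouse library for Acat1, 6113 to 13131 for Oxct1 and 127 to 427 for Bdh1.

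The question asked of the mouse libraries was how each gene's level changed from late fetal to neonatal cells. Acat1 fell between E18.5 and P1 and stayed low, Oxct1 was lower at P7 by under 2-fold, and Bdh1 was scarce at every time point. Acat1 was at 119.8 and 148.2 FPKM at E18.5, 45.2 and 49.3 at P1, then 42.0 and 36.2 at P3, with 33.9 and 33.3 at P7. Both E18.5 libraries lay above all 6 postnatal libraries, and no pair of time points overlapped. How many of all tested genes separate in this way was not counted, so separation is given here and below as a description only. Ranked by level among the 13979 tested genes, Acat1 went from places 538 and 463 at E18.5 to places 2291 and 2266 at P7. Oxct1 was at 86.8 and 110.7 FPKM at E18.5, 87.4 and 86.8 at P1, then 83.2 and 64.9 at P3, with 54.0 and 48.9 at P7. Its E18.5 and P1 libraries overlapped, and both P7 libraries lay below all others. Bdh1 was at 1.98 and 2.72 FPKM at E18.5, 2.49 and 3.65 at P1, then 2.54 and 1.98 at P3, with 1.53 and 1.14 at P7. The first 3 time points overlapped and both P7 libraries were again the lowest. In order of level per length, Acat1 exceeded Oxct1 at E18.5 and Oxct1 exceeded Acat1 at P1, P3 and P7, each time without overlap of their libraries, with Bdh1 far below both throughout.

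**Figure D1:**
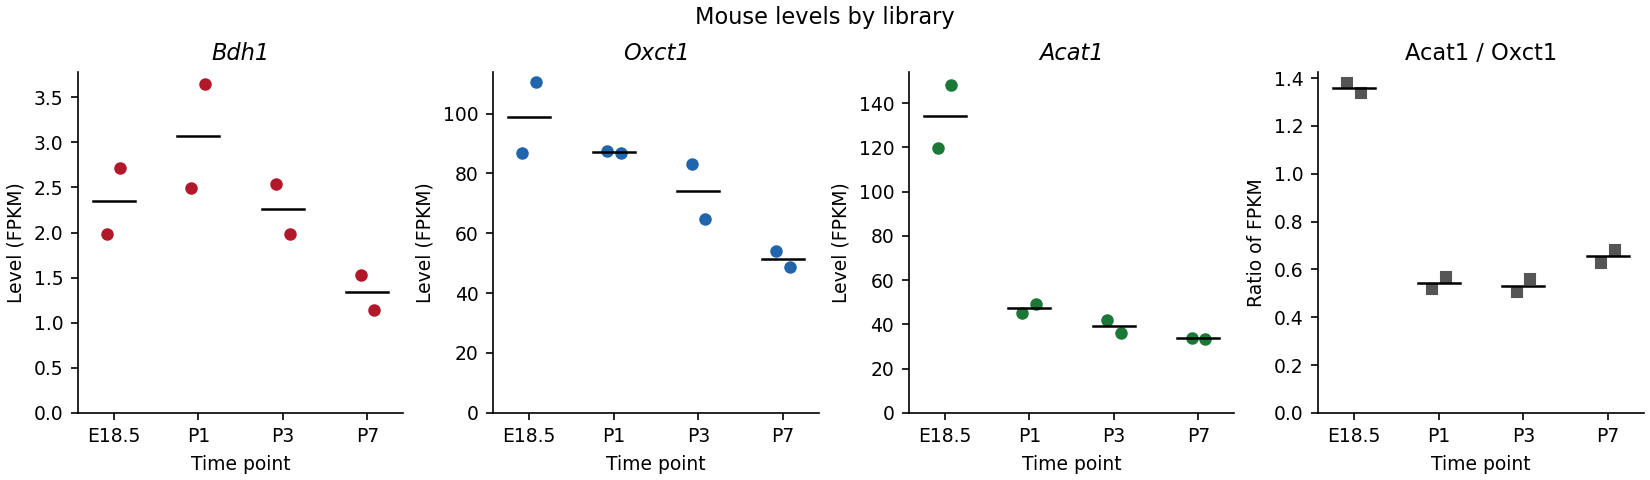
Levels of Bdh1, Oxct1 and Acat1 in FPKM (vertical axis from 0) at each time point, and the ratio of Acat1 to Oxct1 in the same library. Each point is 1 library and each bar the mean of 2; the Acat1 libraries drop between E18.5 and P1, whereas the Oxct1 libraries are lowest at P7.

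Relative to E18.5, Acat1 changed by −1.48 ± 0.14 at P1, −1.75 ± 0.14 at P3 and −1.96 ± 0.14 at P7 (log2 fold change of FPKM + 1 with its SE, n = 2 libraries per time point). The adjusted p values of limma were 0.000239, 7.89e-05 and 2.85e-05. Acat1 was thus called lower in all 3 comparisons, and it was the only one of the 3 genes called, a call being an adjusted p below 0.05 with a change above 2-fold. Of all tested genes, 16.2% were called in either direction in the P1 comparison, 21.9% in that of P3 and 27.7% in that of P7. Those called lower made up 6.06%, 8.88% and 12.3%, and those called higher 10.1%, 13.0% and 15.4%. Oxct1 changed by −0.17 ± 0.16 at P1 (adjusted p 0.439), −0.41 ± 0.16 at P3 (adjusted p 0.0706) and −0.92 ± 0.16 at P7 (adjusted p 0.00194) by the same limma fit. The p threshold alone was passed by 41.3%, 48.9% and 55.2% of tested genes in the 3 comparisons. Oxct1 passed it at P7, but its 95% interval ran from −1.30 to −0.54 and its change stayed under 2-fold. Scaled by median-of-ratios size factors the P7 change was −1.10, past the 2-fold limit. Bdh1 changed by 0.27 ± 0.21 at P1, −0.04 ± 0.21 at P3 and −0.52 ± 0.21 at P7, with limma adjusted p values of 0.333, 0.903 and 0.0712. Its interval at P7 ran from −1.01 to −0.02, so a 2-fold decrease lay within it. The median log2 fold change of all tested genes was 0.15, 0.16 and 0.14 in these comparisons and near 0 after that scaling, which changed the direction of none of the 3 genes' P7 values. The share of calls that were increases was 62.5%, 59.4% and 55.7%, and 45.7%, 45.7% and 45.5% after scaling.

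Among the postnatal time points, differences were under 2-fold for all 3 genes on the scale of FPKM + 1. That scale shrinks changes of low genes, and Bdh1 averaged 3.07 FPKM at P1 and 1.34 at P7. From P1 to P7 Acat1 changed by −0.48 ± 0.14 (limma, adjusted p 0.0524), Oxct1 by −0.75 ± 0.16 (adjusted p 0.0163) and Bdh1 by −0.79 ± 0.21 (adjusted p 0.0371). None of the 3 passed 2-fold on this scale, while 8.91% of all tested genes were called and 18.2% passed the p threshold. Which of the 3 passed the p threshold depended on the setting. Over the alternatives run, the adjusted p ran from 0.0309 to 0.224 for Acat1, from 0.0132 to 0.115 for Oxct1 and from 0.0317 to 0.222 for Bdh1 (limma). With a pseudocount of 0.1 in place of 1, the Bdh1 change from P1 to P7 was −1.13. From P1 to P3 and from P3 to P7 none of the 3 passed the p threshold in limma. The P1 to P3 changes ran from −0.31 to −0.24 with adjusted p values of 0.538 to 0.663, and the P3 to P7 changes from −0.51 to −0.21 with adjusted p values of 0.136 to 0.521. Of all tested genes 0.0143% and 3.55% were called in these 2 comparisons.

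The ratio of Acat1 to Oxct1 within a library does not depend on how libraries are scaled. It was 1.38 and 1.34 at E18.5, 0.518 and 0.568 at P1, then 0.504 and 0.558 at P3, with 0.628 and 0.681 at P7. The E18.5 libraries lay above all others, P1 and P3 overlapped, and both P7 libraries lay slightly above P1 and P3. The ratio of Bdh1 to Oxct1 stayed between 0.0229 and 0.0421 in all 8 libraries. Over the 8 libraries, which share their time points, the levels of Bdh1 and Oxct1 correlated with r = 0.82, Oxct1 and Acat1 with r = 0.76, and Bdh1 and Acat1 with r = 0.36, given as a description. Between E18.5 and P1 Acat1 fell while erythroid markers were lost and the summed cardiomyocyte markers were lower. Of the 16 cardiomyocyte markers, 3 were called lower at P1 and none higher, with a median change of −0.76. The means of Myh6, Atp2a2 and Nppa were higher at P1 than at E18.5, and those of the others were lower. From P1 to P7 Acat1 changed by −0.48, whereas the median change of the 16 cardiomyocyte markers was −3.21, with 16 called lower. The part of these markers in the changes of the 3 genes was not tested.

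The genes whose pattern over the 8 mouse libraries was most like that of each member were found by Pearson's r of log2(FPKM + 1). For Acat1 they were Tceal5, Idh2, Lrrn3, Aldh5a1 and Hist2h2be, with r from 0.995 to 0.996. Idh2, a mitochondrial isocitrate dehydrogenase, was at 1018 and 1341 FPKM at E18.5 and at 99.1 and 82.6 at P7. For Oxct1 they were Zfp428, Ide, Atp6v1d, Trmt2b and 2610318N02Rik (r from 0.977 to 0.987), and for Bdh1 they were Phkb, Rab20, Apopt1, Sv2a and Lrrc4b (r from 0.978 to 0.992).

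Of 5 genes listed for ketone use 3 were tested, namely Bdh1, Oxct1 and Acat1. The testis-type transferases Oxct2a and Oxct2b, near-identical copies whose reads cannot be assigned with certainty, averaged at most 0.0552 FPKM at E18.5 and were at 0 on average at P1 and P7.

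Acat1 was listed with Acaa2 and with Hadha and Hadhb, the subunits of the mitochondrial trifunctional protein, of which Hadhb carries the thiolase. All 4 were called lower in all 3 comparisons with E18.5, with median log2 fold changes, Acat1 included, of −1.36, −1.54 and −2.09. Of all tested genes, 6.06%, 8.88% and 12.3% were called lower in these comparisons. Acaa2, the thiolase of fatty acid oxidation, changed by −2.29 at P7 (limma, adjusted p 2.54e-05). Of 18 citric acid cycle genes, 7 were called lower at P1, 14 at P3 and 17 at P7, with medians of −0.84, −1.21 and −1.93, and none was called higher. At P7 they ranged from −3.68 for Idh2 to −0.84 for Suclg2, the subunit not called. The Oxct1 value of −0.92 lay between Suclg2 and all others of the cycle, and the Acat1 value of −1.96 lay close to the cycle's median.

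Of 5 cytosolic genes that handle the same metabolites, 3 were called higher at P1, 2 at P3 and 2 at P7, with medians of 1.08, 0.91 and 0.57. Of all tested genes, 10.1%, 13.0% and 15.4% were called higher in these comparisons. None of the 5 was called lower, although Hmgcs1, the cytosolic HMG-CoA synthase of cholesterol synthesis, was at −0.80 at P7 (limma, adjusted p 0.00917). Aacs, the cytosolic acetoacetyl-CoA synthetase that turns acetoacetate to lipid synthesis, was at 6.46 and 5.02 FPKM at E18.5, 22.8 and 16.9 at P1, then 25.5 and 21.6 at P3, with 25.1 and 24.0 at P7. Its E18.5 libraries lay below all others, and it rose by 1.62 at P1 and 1.93 at P7 (limma, adjusted p 0.000462 and 8.1e-05). Bdh2, a cytosolic dehydrogenase named after BDH1, rose by 1.61 at P7 (adjusted p 0.00118) from 0.0776 and 0.836 to 3.19 and 3.40 FPKM. Acat2, the cytosolic thiolase, rose by 1.47 at P1 (adjusted p 0.0126), and its value at P7 was 0.49 (adjusted p 0.278). Acat2 has a near-identical copy, Acat3, between which reads may be split, so its values are uncertain.

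Ketone bodies enter cells through monocarboxylate transporters. Of 9 genes listed for transport and sensing 4 were tested, of which none was called at P1, 1 lower at P3, and 1 higher and 1 lower at P7. Slc16a1, the transporter MCT1, was at 41.5 and 43.0 FPKM at E18.5, 28.0 and 34.2 at P1, then 20.95 and 17.4 at P3, with 13.6 and 13.5 at P7. No pair of time points overlapped, and by P7 it fell by 1.57 on the log2 scale (limma, adjusted p 7.59e-05). Slc16a3, the lactate exporter MCT4, rose by 2.01 at P7 (adjusted p 0.0308), from 22.0 and 20.4 to 83.8 and 92.6 FPKM. Its P1 libraries lay far apart at 8.05 and 52.8. Bsg, the chaperone of these transporters, differed by 0.12 (adjusted p 0.582).

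**Figure D2:**
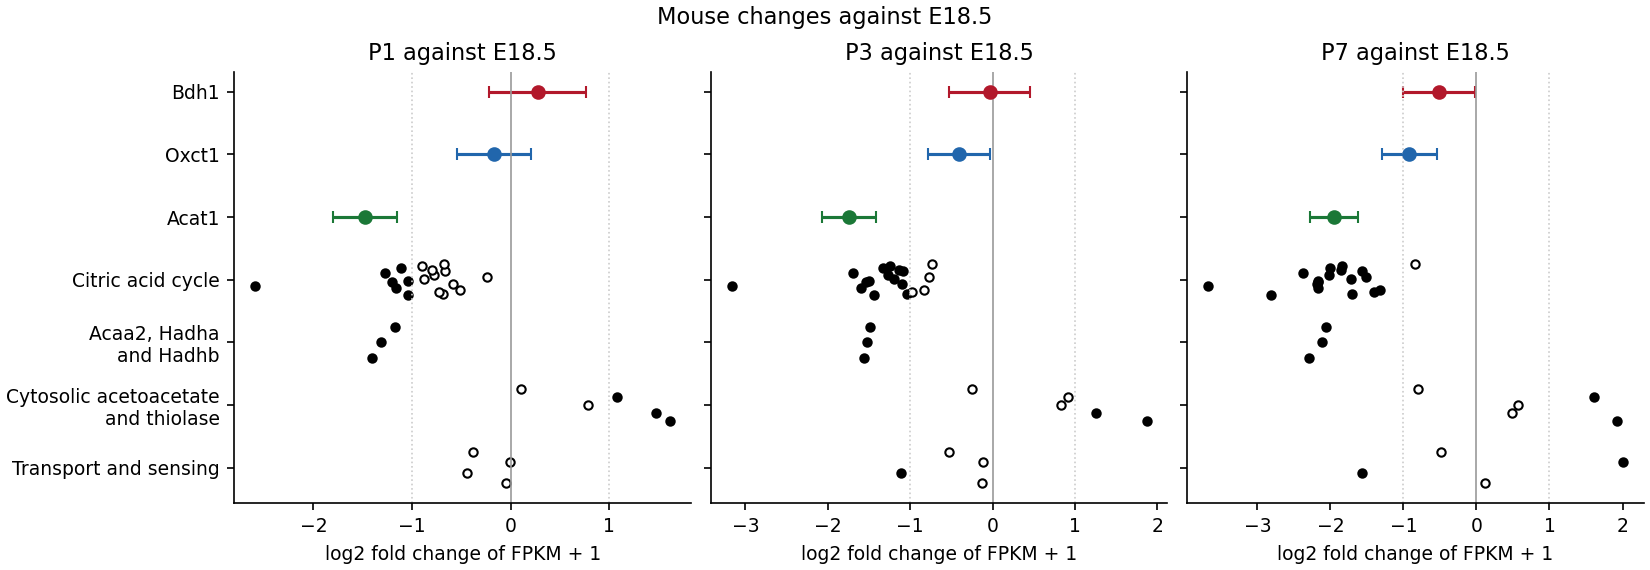
Log2 fold changes of FPKM + 1 against E18.5 at P1, P3 and P7 (horizontal axis) for the 3 genes with their 95% intervals, and for the other tested genes of 4 lists, 1 point per gene. Filled list points were called and open ones were not; dotted lines mark 2-fold, and at P7 17 of 18 citric acid cycle genes and Acaa2, Hadha and Hadhb are filled on the left.

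Each mouse gene was carried almost wholly by 1 annotated transcript, except Bdh1 in P1 replicate 1. The Acat1 transcript ENSMUST00000034547.5 (12 exons) held 98.1% to 99.6% of the gene's FPKM, and the Oxct1 transcript ENSMUST00000110690.8 (17 exons) 96.1% to 99.1%. The Bdh1 transcript ENSMUST00000115227.9 (7 exons, start at chr16:31428748) held 98.7% to 99.9% in 7 libraries and 60.0% in P1 replicate 1, where the remainder was split over other transcripts. The second Oxct1 transcript, ENSMUST00000138927.1, which starts downstream in the same first exon, was at 3.21 and 2.89 FPKM at E18.5 and at most 0.684 afterwards. The libraries do not mark strand, so reads from antisense genes count in both. Gm15743 overlaps the Bdh1 start on the opposite strand at 0 to 0.161 FPKM, and BC037032 overlaps the Oxct1 start at 0.0760 to 0.480 FPKM.

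The ATAC-seq lists were searched for peaks within 2.5 kb of an annotated start. Bdh1 and Oxct1 had such a peak in 8 of 8 libraries and Acat1 in 7 of 8, lacking it in P1 replicate 2. Of all tested genes, 36.6% had a peak in all 8 libraries and 55.9% in at least 7. In replicates 1 and 2 the share was 67.1% and 62.4% at E18.5, 69.2% and 43.0% at P1, then 91.7% and 87.7% at P3, with 86.5% and 85.5% at P7. The lists held 13149 to 95257 peaks, and a peak near a start was thus common among all genes. Peaks were called by the authors in each library separately and carry no count, so no test was made.

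At Bdh1 the recurrent peak did not lie on the start of the main transcript. Its summit fell in intron 1, 1028 to 1182 bases downstream of that start and 477 to 631 bases downstream of the nearest annotated start, that of ENSMUST00000115226.7. That transcript was at 0 FPKM in 7 libraries and at 0.288 in P1 replicate 1. The fold enrichment, the ratio of signal to background at the summit, was 7.51 and 8.38 at E18.5, 6.65 and 5.10 at P1, then 9.73 and 11.7 at P3, with 8.11 and 8.34 at P7. The P1 libraries were the lowest and the P3 libraries the highest. Ranked by score within its list, the peak was at places 2920 and 1265 at E18.5, 7775 and 5431 at P1, then 2079 and 1176 at P3, with 1936 and 1177 at P7. The P1 places were the lowest in rank, and the other time points overlapped. The lists differ in length, so these places were not tested. As a percentage of its list, the place was 22.2% and 8.48% at E18.5 and 26.6% and 27.5% at P1. It was 2.18% and 2.26% at P3 and 3.94% and 3.28% at P7, so on this measure E18.5 did not overlap P3 or P7. A second peak in the last exon was listed in both P3 libraries and in P7 replicate 1, with fold enrichments of 3.26 to 5.93.

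At Oxct1 the peak summit fell in exon 1, 133 to 235 bases downstream of the main start, in all 8 lists. Fold enrichments were 7.27 and 7.41 at E18.5, 10.3 and 10.7 at P1, then 8.59 and 11.8 at P3, with 7.82 and 6.38 at P7. The P1 libraries lay above those of E18.5 and P7, and the P3 libraries did as well. A separate peak in intron 1 was listed in both E18.5 libraries and in P7 replicate 2, 822 to 980 bases after the start, whereas the main peak itself spanned that position in both P3 lists and in P7 replicate 1, with widths of 1275, 1284 and 1356 bases.

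At Acat1 the summit fell in exon 1 within 81 bases of the start in the 7 lists that held a peak. Fold enrichments were 6.30 and 8.75 at E18.5, 7.44 in the one P1 list, 8.35 and 9.49 at P3, then 6.37 and 7.81 at P7. The lowest value of the 7 was that of E18.5 replicate 1, and E18.5 replicate 2 lay below only P3 replicate 2, so the E18.5 lists, where Acat1 RNA was highest, did not stand apart. With every list shortened to the 13149 peaks of the shortest by score, Acat1 kept its peak in 5 libraries and Bdh1 and Oxct1 in 8. A further Acat1 peak in intron 1, 6714 to 6879 bases after the start and outside the 2.5 kb limit, was listed in E18.5 replicate 1, both P3 libraries and P7 replicate 1.

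**Figure D3:**
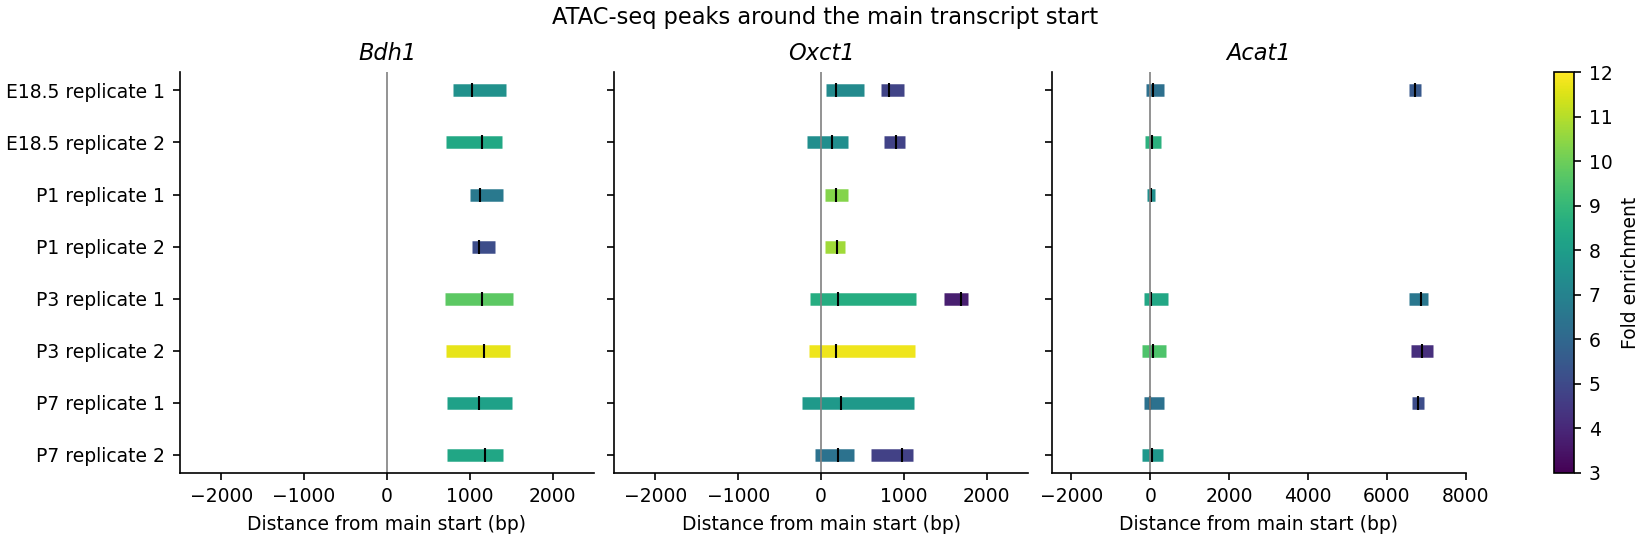
ATAC-seq peaks around the main start of each gene by library, as horizontal bars along the distance from the start in bases, positive in the direction of transcription. Colour gives the fold enrichment and a tick the summit; the Bdh1 peaks sit about 1 kb inside the gene in all 8 lists, and P1 replicate 2 has no Acat1 peak.

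In rat NRVCs the question was whether inhibition of histone deacetylases changed the 3 genes. Replicate 3 stood apart from replicates 1 and 2 in both groups. Its cardiomyocyte markers summed to 26659 FPKM with DMSO and 38449 with TSA, against 14918 to 17503 in the other libraries. The median of these markers was lower in replicate 3 with DMSO (540 against 849 and 849 FPKM). With TSA it was close to the others (981 against 940 and 821). Smooth muscle and pericyte markers of replicate 3 summed to 2369 with DMSO and 1597 with TSA, against 632 to 960. Results are therefore given with and without replicate 3. Macrophage markers summed to 489 to 1031 with DMSO and to 406 to 541 with TSA, and fibroblast markers to 7153 to 7985 and to 4169 to 6670. The medians of both lists overlapped between the groups, for fibroblast markers at 78.3 to 174 with DMSO and 90.8 to 156 with TSA. Of 8 macrophage and 10 fibroblast markers tested, none was called. The part of these markers in the differences was not tested.

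Bdh1 was higher with TSA than with DMSO in 3 of 3 replicates. It was at 4.85, 7.25 and 13.6 FPKM with DMSO and at 14.4, 14.2 and 50.2 with TSA, in the order of replicates 1 to 3. The groups did not overlap, although the highest DMSO library came close to the lowest TSA library. How many of all tested genes were higher in 3 of 3 replicates, or had groups without overlap, was not counted. Within replicates the Bdh1 level with TSA was 2.96, 1.97 and 3.68 times that with DMSO. The log2 fold change was 1.36 ± 0.54 (95% interval 0.08 to 2.64) and was not called by limma, with an adjusted p of 0.223, while 2.13% of all tested genes were called and 1.81% were called higher. The labels do not say whether equal replicate numbers mark paired samples. With the number as a block the SE fell to 0.19, and Bdh1 was called at a limma adjusted p of 0.0351. That call holds only if the numbers mark pairs. Without replicate 3 of both groups the change was 1.14 at an adjusted p of 0.0135 in limma. A two-sided exact permutation test gave p = 0.1, the smallest p it can give with 3 against 3.

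Oxct1 was at 48.3, 58.7 and 114.6 FPKM with DMSO and at 38.5, 36.1 and 129.8 with TSA. It was lower with TSA in replicates 1 and 2 and higher in replicate 3, and the groups overlapped. The log2 fold change was −0.28 ± 0.54 (95% interval −1.56 to 1.00; limma, adjusted p 0.833, and 0.389 with the block; exact permutation p 0.6). Without replicate 3 of both groups it was −0.50 with an adjusted p of 0.0300, under 2-fold. Acat1 was at 63.8, 62.5 and 47.8 FPKM with DMSO and at 60.5, 61.9 and 60.0 with TSA. Its groups overlapped and its change was 0.08 ± 0.13 (95% interval −0.23 to 0.38; limma, adjusted p 0.799; exact permutation p 1), an interval that does not reach 2-fold.

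Taken within a library, Bdh1 relative to Oxct1 separated the groups tightly. The ratio was 0.1005, 0.123 and 0.119 with DMSO and 0.373, 0.394 and 0.387 with TSA. Replicate 3, in which both genes were far higher, fell among the others on this measure. The mean was 0.114 ± 0.0122 with DMSO and 0.385 ± 0.0109 with TSA (SD, n = 3 each), and the TSA ratio was 3.71, 3.196 and 3.25 times the DMSO ratio within replicates. An exact permutation test of the log2 ratio gave p = 0.1, the smallest possible. This measure was chosen after its values were seen. The ratio of Acat1 to Oxct1 was 1.32, 1.06 and 0.417 with DMSO and 1.57, 1.71 and 0.462 with TSA. It was 1.19, 1.61 and 1.11 times as high with TSA within replicates, but the groups overlapped because replicate 3 was low in both (exact permutation p 0.5).

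**Figure D4:**
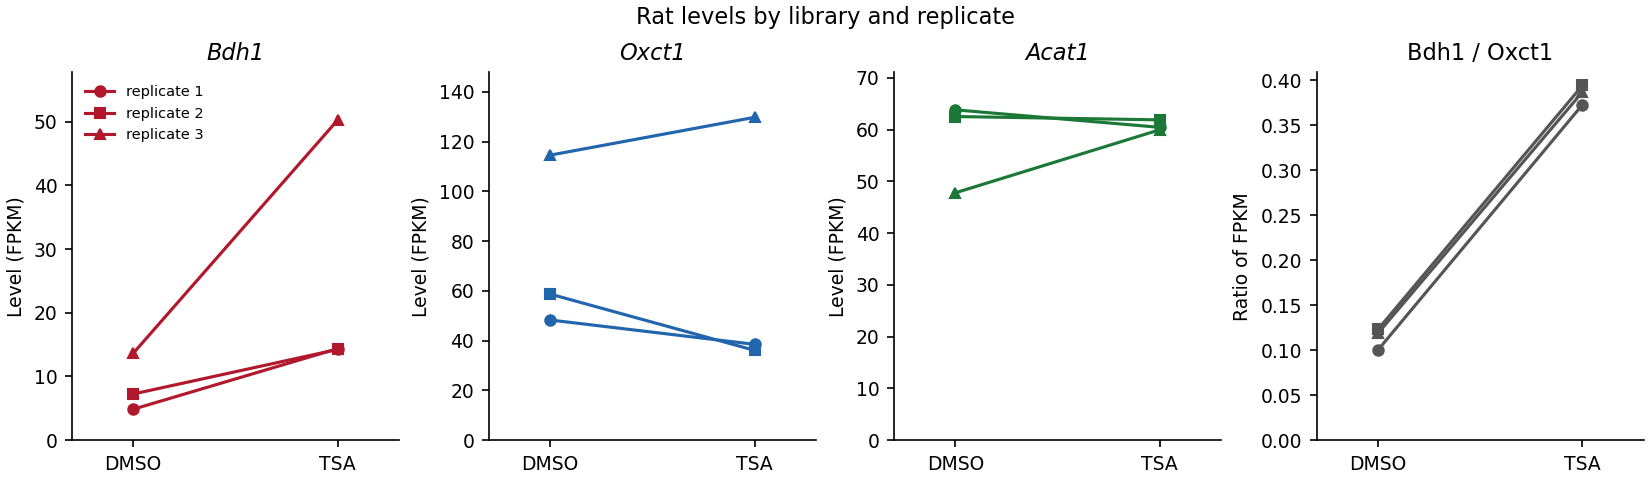
Levels of Bdh1, Oxct1 and Acat1 in FPKM and the ratio of Bdh1 to Oxct1 in rat cells with DMSO and with TSA (vertical axes from 0). Each line joins the 2 libraries of 1 replicate number; Bdh1 and the ratio are higher with TSA in 3 of 3 replicates, and replicate 3 lies apart for Bdh1 and Oxct1.

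Hmgcll1, an HMG-CoA lyase outside the mitochondria, was at 1.83, 1.39 and 1.44 FPKM in rat cells with DMSO and at 4.90, 4.61 and 3.89 with TSA. The groups did not overlap, and it was called higher (log2 fold change 1.10, limma adjusted p 0.0154). None of 16 citric acid cycle genes tested was called, with a median of 0.08, and none of Acat1, Acaa2, Hadha and Hadhb, with a median of 0.35. The median of all tested genes was 0.03. Among 5 tested transport and sensing genes none was called, and Slc16a1 differed by 0.05 (limma, adjusted p 0.824). Of 4 cytosolic genes none was called, and Aacs differed by −0.26 (adjusted p 0.609).

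Bdh1 stood higher relative to Oxct1 in the rat DMSO libraries than in the mouse P1 libraries, whose files were normalized separately. In rat DMSO libraries Bdh1 stood at places 5868 to 10052 among the tested genes, and in mouse P1 libraries at places 9949 and 10727. Per length, Bdh1 was 0.1005 to 0.123 of Oxct1 in rat DMSO libraries and 0.0285 and 0.0421 in mouse P1 libraries. The cells differ in species, isolation and culture, so these values are set side by side without a test.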

How the data were processed

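Expression was measured in 8 mouse and 6 rat poly-A RNA-seq libraries and open chromatin in 8 mouse ATAC-seq libraries; 6 HiChIP libraries were not analysed here. Per the labels and file headers, the authors aligned RNA reads with HISAT2 2.1.0 to mm10 or rn6 and estimated transcript FPKM, TPM and coverage with StringTie (1.3.5 in mouse and 1.3.4d in rat file headers; GENCODE M21 and Ensembl annotations). The deposited peak lists are MACS2 calls made by the authors per library after trimming, Bowtie2 alignment and duplicate removal. They hold a score, the fold enrichment as a ratio, and −log10 p and q values as deposited. The authors' count-based edgeR test could not be repeated, since no counts were used here.

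Gene FPKM was summed over transcripts. Genes with FPKM of at least 1 in 2 (mouse) or 3 (rat) libraries were tested as log2(FPKM + 1), which understates changes of low genes such as Bdh1, with limma 3.58.1 (trend, all mouse time points in 1 fit, Benjamini-Hochberg adjustment over all tested genes, two-sided). The scripts were tested on simulated data. The members and gene lists were chosen with earlier results of these data known. Genes named are the 3 members, genes of the reported lists (some are not reported here), and the 5 tested genes most correlated with each member. The study's methods speak of biological replication for its experiments in general; the labels do not tie single RNA-seq libraries to animals or cultures, and p-values measure the spread between these libraries. Same-numbered rat libraries deviated together (correlations 0.224, 0.194 and 0.346, from the data and not the labels). Replicates 1 and 2 also did so across numbers (0.0904 and 0.167), so these values do not settle the pairing. The blocked value is given where it changes a call. Alternatives were a pseudocount of 0.1, no filter, TPM, size factors, limma-voom on estimated reads, a replicate block, single time-point pairs and each library left out; for peaks, shorter lists, a 1 kb window, summits and expressed starts. Added after seeing the data were fits without rat replicate 3 and blocked fits with other settings.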

Additional observations from a re-analysis of the deposited data

How the results depend on the processing

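For the 3 genes, 262 of 270 mouse and 39 of 48 rat values kept their direction and their side of the threshold under the alternatives. Counts of libraries with a peak were 8 for Bdh1 and Oxct1 in every alternative, and 7 for Acat1 except 5 with lists of equal length. The Acat1 calls at P1, P3 and P7 against E18.5 held in every alternative run, with changes from −1.68 to −1.25, −1.96 to −1.51 and −2.14 to −1.71. With TPM, Oxct1 at P1 was 0.068 and Bdh1 at P3 was 0.17, both reversed. TPM sets every library to the same total. Summed FPKM was higher at E18.5 (531345 and 551325) than at P1 (463426 and 453672) or P3 (461667 and 447061). This rescaling thus lifts P1 and P3 values relative to those of E18.5. With libraries left out in turn, Oxct1 at P1 ran from −0.34 to 0.0054, Bdh1 at P3 from −0.19 to 0.12, and Oxct1 at P7 from −1.09 (called, without E18.5 replicate 1) to −0.75. Oxct1 at P7 was also called with size factors at −1.10, and Bdh1 from P1 to P7 with a pseudocount of 0.1 at −1.13.

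In rat, the replicate block left Bdh1 at 1.36 and called it (adjusted p 0.0351 in limma). It was also called without replicate 3 of both groups at 1.14, and with the block in limma-voom at 1.53, with TPM at 1.34 and with size factors at 1.33; over all alternatives its adjusted p ran from 0.0135 to 0.459. With libraries left out in turn, Bdh1 ran from 0.78 to 1.72, Oxct1 from −0.87 to 0.088 and Acat1 from −0.055 to 0.15; without replicate 3 of both groups Acat1 was −0.046.

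The number of genes called at P1 against E18.5 was 2258, and 3547 with TPM. From P1 to P3 it was 2, and 0 with no filter, TPM, the replicate block or only those 2 time points (1577 genes at an unadjusted p below 0.05 in the limma fit as reported); it was 0 to 35 with libraries left out, the highest without P1 replicate 1. From P3 to P7 it was 496, then 15 with no filter and 23 to 542 with libraries left out (23 and 26 without P3 replicates 1 and 2, and 106 without P7 replicate 2). In rat it was 290, then 549 without replicate 3 of both groups, 537 with the block in limma-voom, and 33 to 458 with libraries left out (65, 92 and 458 without DMSO replicates 1, 2 and 3, and 61 and 33 without TSA replicates 1 and 2). In mouse, same-numbered libraries did not deviate together (correlations −0.0964 to 0.171), and the block changed no call of the 3 genes, although the adjusted p of Bdh1 from P1 to P7 went from 0.0371 to 0.0542 in limma. Mouse Bdh1 rests on 127 to 427 estimated reads per library, the fewest of the 3 genes.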
